A study of Mus musculus with 9 samples.

Results

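The 7 genes described here are nuclear regulators of the Satb, Ebf, Pbx and basonuclin families, measured in the mouse midbrain: Satb1, Ebf1, Ebf2, Ebf3, Pbx2, Pbx3 and Bnc2. They were chosen by symbol, and each of the 7 matched 1 of the 24487 rows of the deposited table. The table gives FPKM, a level corrected for a transcript's length and a library's depth, for 5 libraries of whole midbrain and 4 libraries of dopaminergic neurons from the midbrain, all from mice of the C57BL/6 background. No allele, agent, age, sex or Cre driver is given in the sources used here, nor whether each library is a separate animal, so the spread behind every p-value is that among these samples and could be technical in part. The deposited table is named for bacTRAP, a method that captures tagged ribosomes of 1 cell type, but the isolation of the dopaminergic RNA is not described in the labels and cannot be told apart from cell type here.

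These proteins bind DNA and shape neuronal identity. Satb1 organises chromatin by holding AT-rich DNA at the base of loops, and is known from T cells, cortical interneurons and dopaminergic neurons. The Ebf factors act in B cell and neuron development and bind DNA through a domain of their own with a helix-loop-helix motif for pairing. Pbx proteins carry a TALE homeodomain and bind DNA together with Meis, Pknox and Hox partners. Bnc2 encodes the zinc finger protein basonuclin-2, known from fibroblasts and pigment cells.

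The dopaminergic libraries carried the markers that their label names. Th, Slc6a3, Slc18a2 and Ddc all rose, and their summed level was 3542 to 3939 FPKM against 199 to 229 in whole midbrain. All 42 tested markers of GABAergic and glutamatergic neurons, astrocytes, oligodendrocytes, microglia, endothelial cells, mural cells and fibroblasts fell, and none of them was listed at 0 in every dopaminergic library. Whole midbrain library 2 stood apart, with correlations of 0.903 to 0.906 to its group (Pearson's r across genes, which are not independent replicates) against 0.947 to 0.962 among the other 4. The lowest values of single-exon receptor genes were taken as 1 read, each estimate resting on only 2 genes that agreed within 1 percent. This gave a rough depth of 47.2 to 62.6 megareads for the dopaminergic libraries and 8.15 to 33.6 for whole midbrain. Whole midbrain values have a form that a weighted mean could give, and in that case their lowest value need not be 1 read. At 8.15 megareads (library 4) a read over 1 kb is worth 0.123 FPKM. There Bnc1, with 4646 exonic bases, was listed at 0.00901 FPKM, under 1 read, so that depth may be too low. At the dopaminergic depths a read over a transcript of 1 kb is worth 0.0160 to 0.0212 FPKM, well under the level of each of the 7 regulators.

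Satb1, Pbx3, Ebf3, Pbx2 and Bnc2 rose in the dopaminergic libraries, and Ebf1 and Ebf2 fell, with the calls of Ebf1, Ebf2 and Bnc2 lost under some scalings given with each gene. Satb1 and Pbx3 rose most, 6.85-fold and 6.65-fold by the ratio of mean FPKM, and Ebf2 was 2.18-fold lower. All 7 genes were called by limma at an adjusted p under 0.05 (moderated test of log2(FPKM + 1), Benjamini-Hochberg over the 13106 genes that averaged 1 FPKM or more). That count is read against a background in which 74.2 percent of all genes tested were called, 38.3 percent higher and 36.0 percent lower. For all 7 the groups did not overlap, as for 64.4 percent of all genes tested (32.6 percent with every dopaminergic library above and 31.8 percent below). Satb1, Pbx3, Ebf3 and Pbx2 were called higher with a log2 difference of at least 1, as were 15.1 percent of all genes, and none of the 7 was called lower by as much, against 16.7 percent. Without whole midbrain library 2 the same 5 were called higher and the same 2 lower, against a background of 81.9 percent (43.1 percent higher and 38.8 percent lower). The median log2 difference of the 7 was 1.01, beside 0.04 over all genes tested. Of all genes called, 51.5 percent were higher, and that share was 40.6 percent under upper-quartile scaling and 23.3 percent after rescaling to TPM. Those scalings moved the median of all genes by -0.20 and -0.59 on the log2 scale. In bulk RNA, fewer cells of a type and less RNA per cell cannot be told apart.

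**Figure D1:**
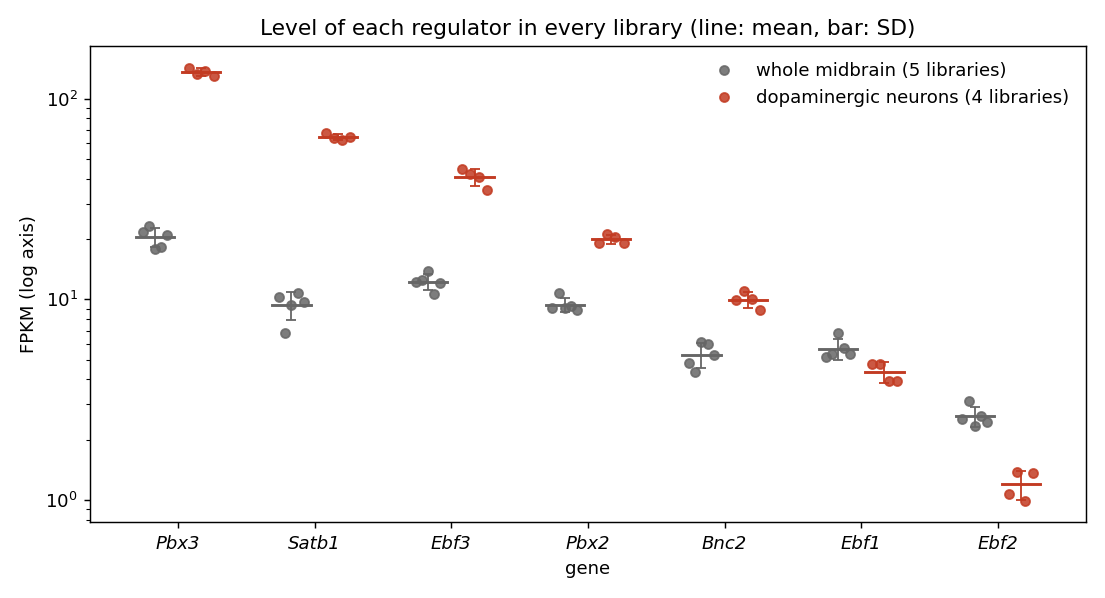
FPKM (log axis) of the 7 regulators in each of 5 whole midbrain libraries (grey) and 4 dopaminergic libraries (red), with the mean (line) and SD (bar). Pbx3, Satb1, Ebf3, Pbx2 and Bnc2 lie higher in every dopaminergic library, and Ebf1 and Ebf2 lower.

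Satb1 (chromosome 17, 51736187 to 51833290, mm10; gene spans as in the table, first base 1) stood at 10.3, 6.83, 9.39, 10.8 and 9.72 FPKM in whole midbrain libraries 1 to 5 and at 67.5, 63.6, 62.2 and 64.3 FPKM in dopaminergic libraries 1 to 4. The groups were far apart, and whole midbrain library 2 was the lowest of all. The log2 difference was 2.67 ± 0.11 (SE; 95% interval 2.41 to 2.92; limma adjusted p = 2.33e-08). Only 80 of the 13106 genes tested, 0.61 percent, had a log2 difference at least as large. Satb1 lay above 53.9 percent of genes tested in whole midbrain and above 90.1 percent in dopaminergic neurons. Its exons share 156 bases with Gm36931 on the same strand and 128 with Gm6934 on the opposite strand.

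The Ebf genes went in different directions. Ebf3 rose, while Ebf1, Ebf2 and the fourth family gene Ebf4 fell, 3 falls that did not pass under quantile normalization. Their coding sequences are alike but distinct: over aligned coding bases Ebf1 and Ebf3 were 79.5 percent identical, Ebf2 and Ebf3 76.0 percent, and Ebf1 and Ebf2 73.8 percent (longest GENCODE coding sequence of each gene, GRCm38, the assembly of mm10). The longest run shared by Ebf1 and Ebf3 was 24 bases, and no window of 100 bases, the read length in the labels, occurred in both, nor did one occur in both genes of any other pair compared. The most alike stretch of 60 coding bases of the 4 genes within 1 exon is shown to let the paralogs be compared; capitals mark the 47 bases that all 4 share. It lies in exon 2 of Ebf1 (chr11:44620469-44620528, plus strand), exon 3 of Ebf2 (chr14:67237504-67237563, plus strand), exon 2 of Ebf3 (chr7:137313560-137313619, minus strand) and exon 3 of Ebf4 (chr2:130306463-130306522, plus strand).
Ebf1: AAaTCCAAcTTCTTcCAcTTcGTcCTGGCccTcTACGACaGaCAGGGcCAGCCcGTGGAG
Ebf2: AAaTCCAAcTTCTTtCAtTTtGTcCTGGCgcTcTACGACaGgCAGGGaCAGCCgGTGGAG
Ebf3: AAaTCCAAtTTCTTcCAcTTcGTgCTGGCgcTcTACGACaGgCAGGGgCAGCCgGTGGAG
Ebf4: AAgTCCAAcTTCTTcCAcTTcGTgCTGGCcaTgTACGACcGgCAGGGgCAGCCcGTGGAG

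Ebf3 (chromosome 7, 137193671 to 137314445), a factor of neuronal differentiation, was at 12.2, 12.5, 13.8, 10.7 and 12.1 FPKM in whole midbrain and at 44.8, 42.3, 40.6 and 35.1 FPKM in dopaminergic libraries. Every dopaminergic library lay above every whole midbrain library, and dopaminergic library 4 was the lowest of its group. The ratio of means was 3.32 and the log2 difference 1.65 ± 0.09 (SE; 95% interval 1.45 to 1.86; limma adjusted p = 1.22e-07). A log2 difference at least as large was found in 4.74 percent of genes tested. The exons of Ebf3 share 355 bases with the antisense gene Gm45278, and no source states a stranded protocol.

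Ebf1 (chromosome 11, 44618100 to 45008096), known from B cells, developing dopaminergic neurons and pericytes, was at 5.15, 5.36, 6.80, 5.72 and 5.35 FPKM in whole midbrain. In dopaminergic libraries 1 to 4 it was at 4.79, 4.78, 3.91 and 3.91 FPKM. The groups did not overlap, but the lowest whole midbrain library lay only slightly above the highest dopaminergic one. The log2 difference was -0.32 ± 0.10 (SE; 95% interval -0.54 to -0.10; limma adjusted p = 0.0133). This call did not hold with median centring (-0.25, limma adjusted p = 0.0503), quantile normalization (-0.10, 0.449) or length correction (-0.014, 0.898), and the sign turned after correction for length and GC content (0.015, 0.889). Over all settings its limma adjusted p ran from 1.4e-04 to 0.898.

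Ebf2 (chromosome 14, 67233292 to 67430952), known from brown fat and olfactory neurons, was the lowest of the 7 in both groups. It was at 2.54, 3.13, 2.34, 2.62 and 2.46 FPKM in whole midbrain and at 1.07, 1.38, 0.995 and 1.36 FPKM in dopaminergic libraries. Dopaminergic libraries 2 and 4 were the higher ones. Libraries 2 and 4 also held the larger sums of oligodendrocyte markers (111.9, 153, 116 and 176 FPKM in libraries 1 to 4) and astrocyte markers (13.9, 29.5, 18.1 and 25.3 FPKM). The same held for GABAergic markers (74.6, 80.2, 73.7 and 82.8 FPKM) and glutamatergic markers (11.3, 16.2, 10.4 and 13.3 FPKM). It also held for microglial and endothelial markers, but not for mural and fibroblast markers. The part of such RNA in the Ebf2 level was not tested. Ebf2 stood at 45.9 percent of its whole midbrain mean in dopaminergic neurons. The summed oligodendrocyte markers stood at 11.1 percent, astrocyte markers at 4.02, GABAergic markers at 21.3 and glutamatergic markers at 20.5 percent. The log2 difference was -0.72 ± 0.10 (SE; 95% interval -0.94 to -0.49; limma adjusted p = 9.23e-05), and under quantile normalization it was -0.20 (limma adjusted p = 0.081, the highest of a range from 1.9e-06). Its exons share 424 bases with the antisense gene Gm10860.

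Ebf4 averaged 1.91 ± 0.07 FPKM (SD, n = 4) in the dopaminergic libraries and 3.14 ± 0.55 (SD, n = 5) in whole midbrain. Its log2 difference of -0.50 was called (limma adjusted p = 0.0022), and under quantile normalization it was -0.07 (0.629, the highest of a range from 2.8e-05). The make-up of the family differed between the groups. Ebf3 held 82.9 to 85.7 percent of the summed Ebf FPKM in the dopaminergic libraries and 47.1 to 53.7 percent in whole midbrain. Ebf1 held 8.25 to 9.48 percent against 22.4 to 26.0 percent, and Ebf2 held 2.03 to 3.21 percent against 8.95 to 13.5 percent. The summed level of the 4 genes was 42.4 to 52.5 FPKM in dopaminergic neurons and 22.7 to 26.2 FPKM in whole midbrain.

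**Figure D2:**
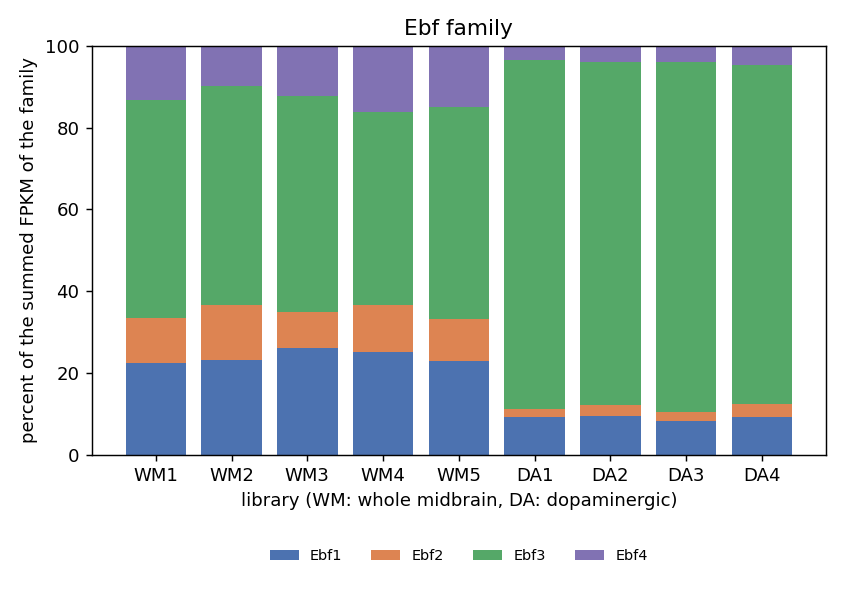
Share of each gene in the summed FPKM of the Ebf family, in percent, for each whole midbrain (WM) and dopaminergic (DA) library. Ebf3 takes 82.9 to 85.7 percent in dopaminergic libraries and 47.1 to 53.7 percent in whole midbrain.

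The difference between Ebf paralogs was tested within libraries, where both genes share the library's scaling. The log2 difference of Ebf1 minus Ebf3 was -3.09 to -2.88 in dopaminergic libraries and -1.11 to -0.80 in whole midbrain, a change of -1.97. Ebf2 minus Ebf3 was -4.47 to -3.94 against -2.15 to -1.69, a change of -2.37. Neither pair overlapped between the groups (exact two-sided permutation test over libraries, p = 0.0159 for each, the smallest this design allows, and 0.0222 adjusted over the 7 pairs compared, of which 4 are reported). Without dopaminergic library 1, 2 or 3 neither call held (adjusted p = 0.05 for each, exact permutation test). The changes stayed at -1.99 to -1.93 and -2.39 to -2.30. Without dopaminergic library 4 both calls held. Fewer libraries allow fewer arrangements, which raises the smallest p the test can reach, and the adjusted p also depends on the other pairs. Ebf1 minus Ebf2 was 1.06 to 1.49 against 0.63 to 1.22, so those groups overlapped. That change of 0.40 had an exact permutation p of 0.0317 (0.0370 adjusted over 7 pairs). With a pseudocount of 5 it was 0.11 (adjusted p = 0.204, exact permutation test) and under quantile normalization 0.10 (adjusted p = 0.524), in a range of adjusted p from 0.0333 to 0.524. Leaving out 1 library ended this call in each case but whole midbrain library 3 and dopaminergic library 4, with changes of 0.33 to 0.40 (adjusted p = 0.0571 to 0.0833, exact permutation test).

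**Figure D3:**
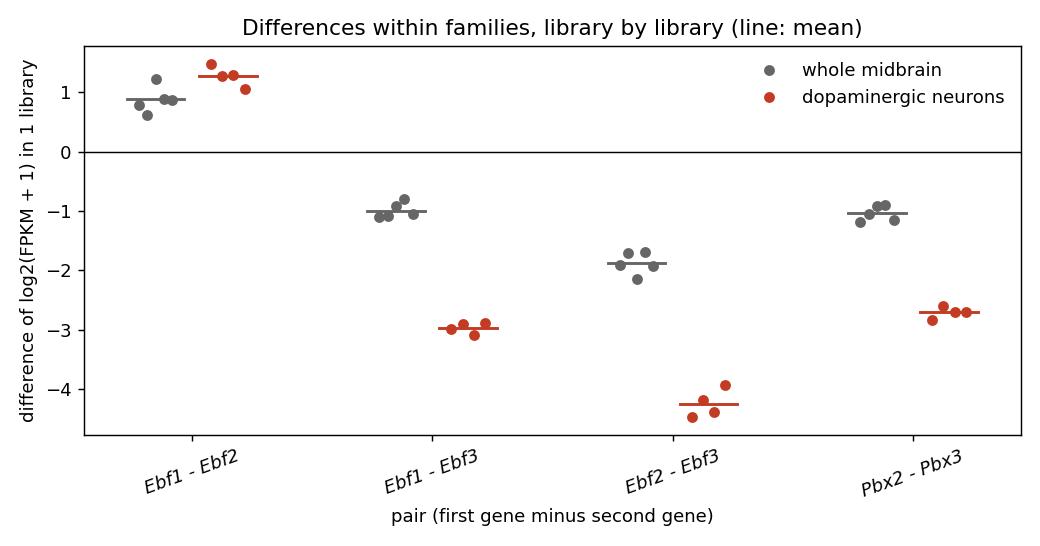
Difference of log2(FPKM + 1) between 2 genes of a family in each whole midbrain (grey) and dopaminergic (red) library, with group means as lines. Ebf1 minus Ebf3, Ebf2 minus Ebf3 and Pbx2 minus Pbx3 do not overlap between the groups, and Ebf1 minus Ebf2 does.

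Promoter sequence was looked at because Ebf1 and Ebf3 moved apart and Satb1 and Ebf3 moved together. RefSeq (GRCm38.p6) gave a start for 5 of the 7 genes, and Ebf2 and Pbx3 are named only. The 250 bases before the start are printed for Satb1, Ebf1 and Ebf3, for which a RefSeq start is that of the table. RefSeq lists 5 starts for Satb1, 2 for Ebf1 and 1 for Ebf3, and only the start matching the table was looked at. The printed windows lie at chr17:51833291-51833540 (minus strand), chr11:44617850-44618099 (plus strand) and chr7:137314446-137314695 (minus strand), and capitals mark CG pairs.
Satb1: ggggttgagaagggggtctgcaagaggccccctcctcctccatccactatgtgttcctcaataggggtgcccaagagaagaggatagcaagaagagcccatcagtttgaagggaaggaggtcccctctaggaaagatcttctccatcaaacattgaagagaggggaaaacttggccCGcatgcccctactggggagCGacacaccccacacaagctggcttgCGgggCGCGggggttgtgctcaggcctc
Ebf1: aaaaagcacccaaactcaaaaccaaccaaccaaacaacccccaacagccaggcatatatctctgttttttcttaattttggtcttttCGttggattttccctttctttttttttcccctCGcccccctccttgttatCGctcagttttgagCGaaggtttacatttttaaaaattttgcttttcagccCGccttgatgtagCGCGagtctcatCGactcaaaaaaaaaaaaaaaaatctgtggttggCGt
Ebf3: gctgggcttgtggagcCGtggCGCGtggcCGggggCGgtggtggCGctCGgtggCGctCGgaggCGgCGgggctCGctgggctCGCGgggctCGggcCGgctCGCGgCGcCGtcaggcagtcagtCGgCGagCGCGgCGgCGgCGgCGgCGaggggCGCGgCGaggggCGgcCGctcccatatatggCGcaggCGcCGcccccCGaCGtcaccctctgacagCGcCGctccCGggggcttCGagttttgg

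The Ebf1 window held 40 percent G and C and 9 CG pairs, the Ebf3 window 80 percent and 43 CG pairs, and the Satb1 window 58 percent and 5 CG pairs. The medians over all 32851 windows were 52.4 percent and 6 CG pairs. The letters searched on both strands were TGATTGAT for Pbx, AAAGGTCA for Nr4a2 and TAATTA for homeodomain proteins. None was found in these 3 windows, and they occur in 0.67, 1.34 and 4.84 percent of all windows in that order. A window without these letters tells nothing of the factors.

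Pbx2 and Pbx3 both rose, Pbx3 by far the more. Their relative Pbx4 rose as well. Over aligned coding bases Pbx2 and Pbx3 were 74.1 percent identical, with a longest shared run of 16 bases. The most alike stretch of 60 coding bases of Pbx2, Pbx3 and Pbx4 within 1 exon, in exon 1 of each, is printed for the same purpose as that of the Ebf genes, with the 47 bases all 3 share in capitals. It lies at chr17:34592704-34592763 (Pbx2, plus strand), chr2:34371732-34371791 (Pbx3, minus strand) and chr8:69832781-69832840 (Pbx4, plus strand).
Pbx2: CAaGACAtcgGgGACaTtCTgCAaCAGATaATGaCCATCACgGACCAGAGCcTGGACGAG
Pbx3: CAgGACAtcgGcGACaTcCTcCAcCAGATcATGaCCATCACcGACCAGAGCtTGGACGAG
Pbx4: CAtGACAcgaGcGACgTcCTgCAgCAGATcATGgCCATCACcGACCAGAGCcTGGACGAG

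Pbx3 (chromosome 2, 34171457 to 34372045) was the most abundant of the 7 regulators in both groups. It was at 21.8, 23.3, 17.9, 18.3 and 21.0 FPKM in whole midbrain and at 143, 133, 138 and 129 FPKM in dopaminergic libraries. The lowest dopaminergic library lay far above the highest whole midbrain library. The log2 difference was 2.68 ± 0.09 (SE; 95% interval 2.48 to 2.88; limma adjusted p = 5.19e-09), the 77th largest of the genes tested. Pbx3 lay above 95.2 percent of genes tested in dopaminergic neurons and above 77.0 percent in whole midbrain.

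Pbx2 (chromosome 17, 34592471 to 34597341), a widely expressed member, was at 9.09, 10.8, 9.01, 9.31 and 8.91 FPKM in whole midbrain and at 19.2, 21.2, 20.4 and 19.1 FPKM in dopaminergic libraries. Whole midbrain library 2 was the highest of its group and still well under every dopaminergic library. The ratio of means was 2.12 and the log2 difference 1.01 ± 0.08 (SE; 95% interval 0.84 to 1.18; limma adjusted p = 8.45e-07). Its exons share 227 bases with Gpsm3 on the same strand, so reads there could belong to either gene.

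Pbx4 was at 5.70 ± 0.95 FPKM (SD, n = 4) against 2.45 ± 0.41 (SD, n = 5), with a log2 difference of 0.96 (limma adjusted p = 5.10e-05).

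Pbx2 minus Pbx3 was -2.83 to -2.60 on the log2 scale in dopaminergic libraries and -1.18 to -0.91 in whole midbrain. The change of -1.67 passed (exact permutation p = 0.0159, 0.0222 adjusted over 7 pairs). Without dopaminergic library 1, 2 or 3 the call was lost (adjusted p = 0.05, exact permutation test), with changes of -1.71 to -1.63. Without dopaminergic library 4 it held. Fewer libraries allow fewer arrangements, which raises the smallest p the test can reach, and the adjusted p also depends on the other pairs.

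Bnc2 (chromosome 4, 84272542 to 84675086) was at 4.8, 4.37, 6.13, 5.97 and 5.26 FPKM in whole midbrain and at 9.95, 11, 10 and 8.87 FPKM in dopaminergic libraries. The groups did not overlap, and the rise was the smallest of the 5. The ratio of means was 1.88 and the log2 difference 0.80 ± 0.10 (SE; 95% interval 0.57 to 1.03; limma adjusted p = 4.82e-05). After rescaling to TPM the log2 difference was 0.26 and the call was lost (limma adjusted p = 0.181, the highest of a range from 3.7e-06). Relative to the median of all genes it was 0.81 under that scaling and 0.76 without it. Its paralog Bnc1 was listed at 0 in all 4 dopaminergic libraries and at no more than 0.0407 FPKM in whole midbrain. Markers of fibroblasts, in which Bnc2 is known, summed to 3.78 to 10.2 FPKM in dopaminergic libraries and 14.9 to 89.1 FPKM in whole midbrain. Whole midbrain library 3, with the least of them in its group, had the most Bnc2, and library 4, with the most of them, had the next highest level. The part of fibroblast RNA in the Bnc2 level was not tested.

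**Figure D4:**
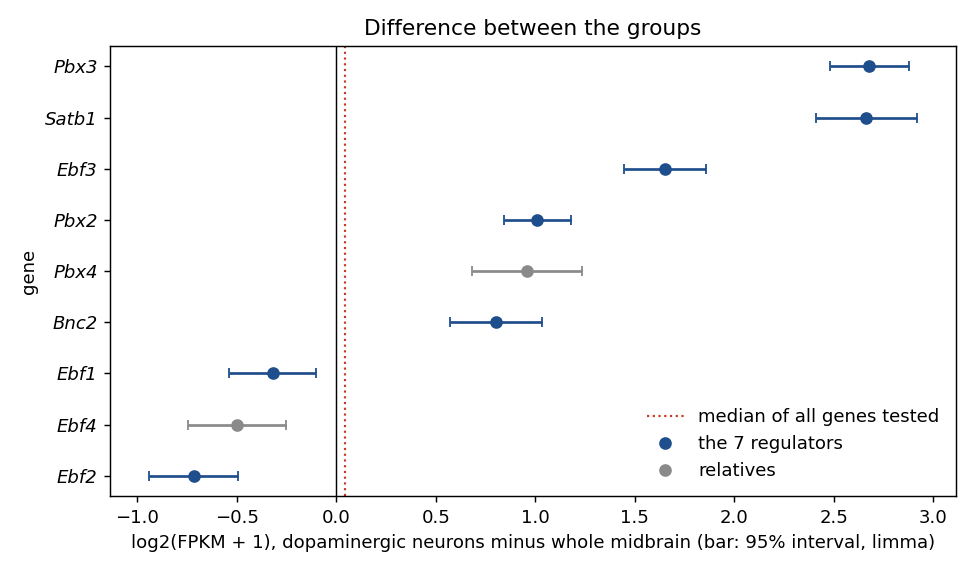
Difference of log2(FPKM + 1), dopaminergic neurons minus whole midbrain, with 95% intervals from limma for the 7 regulators (blue) and 2 relatives (grey). The dotted line is the median of all genes tested, 0.04, and only Ebf1, Ebf2 and Ebf4 lie under 0.

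The order of the 7 levels in dopaminergic neurons was Pbx3, Satb1, Ebf3, Pbx2, Bnc2, Ebf1 and Ebf2, and no 2 neighbours overlapped over the 4 libraries. In whole midbrain the order was Pbx3, Ebf3, Pbx2, Satb1, Ebf1, Bnc2 and Ebf2. There the ranges of Ebf3 and Pbx2, of Pbx2 and Satb1, and of Ebf1 and Bnc2 overlapped. Ebf3 was above Pbx2 in 5 of 5 whole midbrain libraries, and Pbx2 above Satb1 in 1 of 5. FPKM is scaled per length, so levels were set side by side between genes. The order is approximate, since shared exons and any remaining effect of length or GC content were not corrected in these levels.

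Genes with the most similar profile over the 9 libraries were found by Pearson's r of log2(FPKM + 1), as a description. For Satb1 they were Fam102b, Nrip3 and Fbxl16 (r = 0.9989, 0.9989 and 0.9988). For Pbx3 they were Timm17a, Isca2 and Rit2 (0.9989, 0.9988 and 0.9987), for Pbx2 Golph3 and Sfxn1 (0.9978 and 0.9976), and for Ebf3 Agfg1 and Schip1 (0.9973 and 0.9963). Bnc2 was nearest to Gid8, Fbxo45 and Btf3l4 (0.9929, 0.9925 and 0.9916). Ebf2 was nearest to Rgcc, Gng11 and Phtf1os (0.9962, 0.9958 and 0.9955). The 9 points fall into the 2 groups and share their libraries, and 1546 of 11703 genes exceeded an r of 0.95 with Satb1 and 1108 with Ebf2. Ebf1 had only 2 such genes, Usp11 and Dzank1 (0.9700 and 0.9509), followed by Lrch2 (0.9489).

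Partners of the Pbx proteins split into both directions. Of 6 genes, 2 rose and 4 fell, with a median log2 difference of -1.0 beside 0.04 for all genes tested, of which 38.3 percent were called higher and 36.0 percent lower. Meis3 and Pknox2, TALE homeodomain partners, were at 34.4 ± 3.19 against 12.5 ± 1.28 FPKM and at 15.3 ± 1.43 against 5.77 ± 0.53 FPKM (SD; n = 4 dopaminergic and 5 whole midbrain libraries here and in the next paragraphs). Meis2 and Meis1, of the same family, were at 2.48 ± 1.21 against 13.4 ± 2.98 and at 1.11 ± 0.35 against 4.2 ± 0.42 FPKM. The largest fall was that of Pbxip1, a Pbx-binding protein that keeps Pbx from DNA, at 0.421 ± 0.141 against 8.66 ± 0.56 FPKM, 20.6-fold lower. Pknox1 fell by 0.69 on the log2 scale, and under quantile normalization it was at -0.15 (limma adjusted p = 0.375, the highest of a range from 3.9e-05). The summed level of the 6 genes was 47.8 to 58.0 FPKM in dopaminergic neurons and 41.6 to 51.0 FPKM in whole midbrain.

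Of 5 partners of the Ebf factors, 1 rose and 2 fell (median -0.34), beside 38.3 and 36.0 percent of all genes tested. A total of 3 of 5 called is no more than the background of 74.2 percent. Zfp521, a zinc finger protein that binds Ebf factors, was at 14.2 ± 0.86 against 7.85 ± 1.41 FPKM. After rescaling to TPM its log2 difference of 0.80 became 0.22 (limma adjusted p = 0.331, the highest of a range from 3.0e-06). Its relative Zfp423 was at 14.4 ± 1.2 against 15.2 ± 1.66 FPKM, with a log2 difference of -0.07 (95% interval -0.28 to 0.14). Zfp423 was called lower under upper-quartile scaling (-0.30, limma adjusted p = 0.0336) and as TPM (-0.70, 0.00183). The E proteins Tcf4 and Tcf12 fell by 0.91 and 0.74. Their calls were lost after correction for length and GC content (-0.12, limma adjusted p = 0.194, and -0.19, 0.0696), and that of Tcf4 also after length correction (-0.10, 0.325). Across the settings the limma adjusted p of Tcf4 ran from 1.6e-08 and that of Tcf12 from 2.8e-06. Tcf3 was at -0.34 and did not pass. It was called lower under upper-quartile scaling (-0.51, limma adjusted p = 0.0302) and as TPM (-0.96, 0.00118). The same held after correction for length and GC content (-0.65, 0.00526), while under quantile normalization it was at 0.09 (0.703).

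Of 8 tested chromatin proteins reported to bind Satb1, 1 rose and 4 fell (median -0.30), so the share called was under the background of 74.2 percent (38.3 percent higher and 36.0 percent lower). Baz1a, the ninth, was under the filter. Without whole midbrain library 2, 2 rose and 5 fell, the added genes being Hdac2 and Hdac1, beside 43.1 and 38.8 percent of all genes. The direction of Hdac2 depended on the scaling. With all libraries it was called lower under quantile normalization (-0.27, limma adjusted p = 0.0301) and as TPM (-0.53, 2.5e-04). Ctbp1, a corepressor, was at 42.0 ± 2.55 against 19.7 ± 8.65 FPKM. Whole midbrain library 2 carried that spread, at 35.1 FPKM against 15.2 to 16.5 in the other 4, and without it the log2 difference of 1.13 became 1.35. The nucleosome remodeller Chd4 fell by 0.71 and the acetyltransferase Kat2b fell by 0.74 on the log2 scale. Mta2, of the same remodelling complex as Chd4, fell by 0.54 and the acetyltransferase Ep300 fell by 0.36. Groups overlapped for Mta2 and Ep300. Quantile normalization ended the call of Mta2 (-0.31, limma adjusted p = 0.141, the highest of a range from 6.1e-04), and the sign of Ep300 turned after length correction (0.12, limma adjusted p = 0.187).

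Of 4 genes linked to Satb or Pbx factors in dopaminergic neurons, all 4 rose (median 0.97, beside 0.04 over all genes tested, of which 38.3 percent were called higher), 2 of them only under some scalings. Cdkn1a, a cell cycle inhibitor that Satb1 has been reported to repress, was at 4.52, 3.61, 3.20, 3.47 and 4.15 FPKM in whole midbrain and at 11.4, 13.2, 15.8 and 11.3 FPKM in dopaminergic libraries. Its groups did not overlap, and the log2 difference was 1.53 ± 0.12 (SE; limma adjusted p = 1.15e-06). Pitx3, a homeobox gene needed for these neurons, rose by 3.69. Nfe2l1, a stress-response factor, rose by 0.36, and Onecut2, a homeobox gene, rose by 0.40. The last 2 depended on the scaling: Nfe2l1 was called lower under quantile normalization (-0.26, limma adjusted p = 0.0398) and was at -0.27 as TPM (0.0618), and Onecut2 was at -0.07 as TPM (0.751). Neither passed under upper-quartile scaling (limma adjusted p = 0.206 and 0.114).

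**Figure D5:**
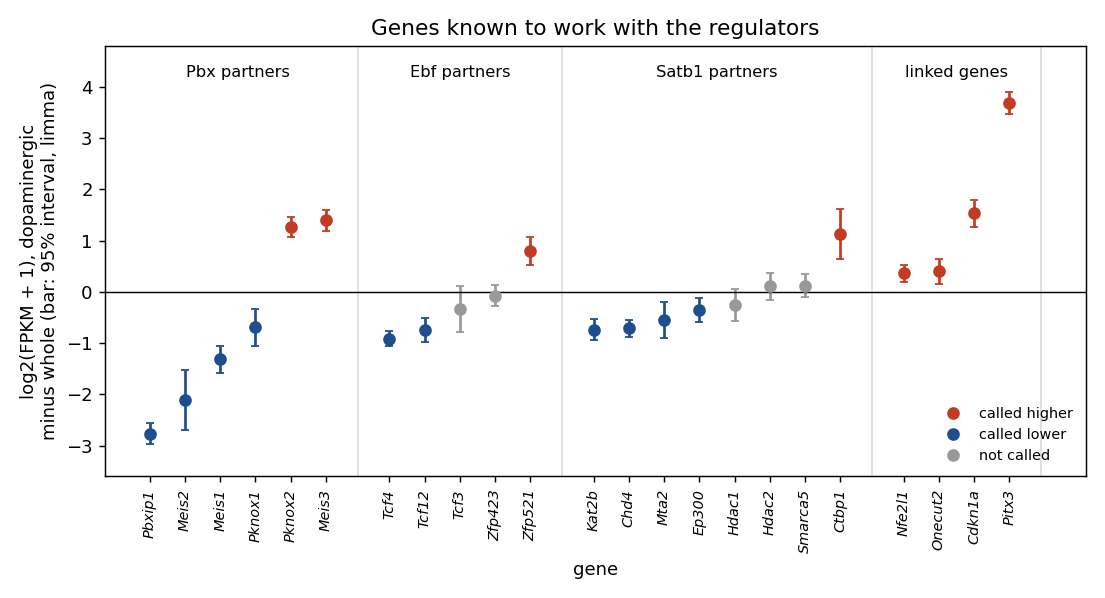
Difference of log2(FPKM + 1), dopaminergic neurons minus whole midbrain, with 95% intervals from limma, for partners of Pbx, Ebf and Satb1 and for linked genes. Pbxip1 is lowest at -2.77 and Pitx3 highest at 3.69; red genes were called higher, blue lower and grey neither.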

How the data were processed

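The authors deposited FPKM per gene for the 9 libraries in 1 table. The tools TopHat2 2.0.8 and Cufflinks 2.1.1 and the build mm10 are named, per the submitters' processing notes. Annotation, options and strand handling: not given in the sources used here. In whole midbrain, values from 12 to 80 FPKM fell on multiples of 0.0001 over a whole number (364 to 404, by library, within 0.1 of a step). A weighted mean could have that form, but how the values were made was not tested. The dopaminergic values have at most 6 digits. This difference in form coincides with the groups and cannot be told apart from cell type. The depth estimate assumed fragments of 200 bases.

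From the deposited FPKM, limma 3.58.1 (R 4.3.3) compared the groups on log2(FPKM + 1), keeping genes that averaged 1 FPKM or more. The fit used a trend of variance on level (degrees of freedom: 7 residual, 3 prior) and was tested on simulated data. Pairs of genes were compared by exact permutation (SciPy 1.17.1). The members and lists were chosen with earlier results of these data known. Genes were named by rule: the 7 regulators, their relatives, called genes of the partner lists, and the 3 genes nearest to each by correlation. Some of these genes, and the pairs that hold them, are not reported here. Uncalled partners were added after their values were seen. Alternatives were other pseudocounts (0.1, 5), filters (none, 5 FPKM), scalings, weights, no trend, length and GC correction by loess (spans 0.5 and 0.3; 12457 genes with values), the replicate number as a block, and leaving out each library. Figures used matplotlib 3.10.9.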

Additional observations from a re-analysis of the deposited data

Results flagged for a closer look

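Of 18 sets of values, each the libraries of 1 group for 1 gene, 1 held a library whose gap to its neighbour exceeded Dixon's 95% limit. Chance flags about 1 in 20 groups. It was Pbx2 in whole midbrain library 2, highest there at 10.8 FPKM against 8.91 to 9.31 in the others, and that library also stood apart from its group across genes.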

How the results depend on the processing

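Satb1, Ebf3, Pbx2 and Pbx3 kept their direction and call under all 22 alternatives, with log2 differences of 2.11 to 3.29, 1.07 to 1.93, 0.43 to 1.08 and 2.08 to 2.80. Leaving out each library gave 2.57 to 2.71 for Satb1, -0.36 to -0.26 for Ebf1, -0.76 to -0.67 for Ebf2, 1.61 to 1.72 for Ebf3, 0.98 to 1.06 for Pbx2, 2.64 to 2.73 for Pbx3 and 0.75 to 0.85 for Bnc2. Ebf1 was not called under quantile normalization (-0.10), median centring (-0.25), length correction (-0.014) or the replicate block (-0.34), and was at 0.015 after length and GC correction. Ebf2 was at -0.20 under quantile normalization and was not tested at a minimum of 5 FPKM, and Bnc2 was at 0.26 as TPM. The cause was not tested.

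Genes called lower numbered 2493 at a minimum of 5 FPKM, where fewer genes were tested, and TPM called 2248 higher and 7393 lower. Leaving out libraries gave 4712 to 5646 higher and 4483 to 5089 lower. Relatives called lower numbered 0 under quantile normalization, and at 5 FPKM, where none was tested, 0 were called higher and 0 lower. Pbx partners called lower numbered 1 at 5 FPKM. Of the linked genes, quantile normalization called 1 lower, and upper-quartile scaling and TPM called 2 higher. Of the Ebf partners, upper-quartile scaling called 4 lower, TPM 0 higher and 4 lower, and both length corrections 1 lower. Of the Satb1 partners, TPM called 7 lower, and library weights and both length corrections 2 higher, with 1 to 2 higher when leaving out libraries.

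Same-numbered libraries did not deviate together (correlations of -0.05 to 0.02 over 4 pairs). This cannot tell whether they share an animal or a batch, since noise of each library could hide it. With the replicate block, 4554 genes were called higher and 4355 lower. For the paired log2 changes within families, an exact sign-flip permutation test over 4 pairs cannot go below p = 0.125, and gave 0.40 (Ebf1 minus Ebf2), -1.99 (Ebf1 minus Ebf3), -2.38 (Ebf2 minus Ebf3) and -1.70 (Pbx2 minus Pbx3). Ebf1 minus Ebf2 was 0.11 with a pseudocount of 5 and 0.10 under quantile normalization. Leaving out libraries gave 0.33 to 0.48, -2.0 to -1.92, -2.47 to -2.30 and -1.71 to -1.63 in the same order. Without dopaminergic library 1, 2 or 3 the adjusted p of the last 3 pairs was 0.05 (exact permutation test). Without dopaminergic library 4 their calls held. Fewer libraries allow fewer arrangements, and the adjusted p also depends on the other pairs. Precision is limited by 4 and 5 libraries, and the depth of the whole midbrain libraries, known only roughly, limits Bnc1.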
